A study of Rattus norvegicus with 24 samples.

Results

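Chemokine and interleukin genes and the genes of their receptors were followed in the neonatal rat testis, in fresh tissue, in cultures of its cells and in cultures given gonadotropins. The genes were taken by name, as symbols that begin with Ccl, Cxcl, Ccr, Cxcr or Il followed by a digit, with Cxcl12 left out. They needed a level of at least 1 CPM (a read count relative to the size of its library) in at least 3 libraries of at least 1 of the 2 experiments. Of 21425 genes listed, 49 matched by name and passed this level filter, and 72 more matched by name and did not. Of the 49, 45 could be tested in the culture experiment and 39 in the hormone experiment, 35 of them in both.

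Chemokines are small secreted proteins that steer migrating cells, and they act through G protein-coupled receptors. Interleukins signal through paired receptor chains: the interleukin-1 and interleukin-17 receptor families lead to NF-kB, and the chains that bind interleukin-4, interleukin-6 or interleukin-10 lead to JAK kinases and STAT factors. In the testis, resident macrophages, Leydig cells, Sertoli cells and peritubular cells are known sources of these factors, and interleukin-1 and interleukin-6 are known to act on steroid and Sertoli cell function.

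All libraries came from wild-type Sprague Dawley rats at postnatal day 5, and the whole testis cell mixture was used with no cell type enriched or depleted. In the culture experiment, called baseline by the submitters, 3 libraries were made from each of primary tissue and gel cultures at days 3, 5 and 7. In the induction experiment, cultures were kept for 10 days and sampled before (0 h) and 2, 12 and 48 h after 50 mIU/mL luteinising hormone (LH) and 20 mIU/mL follicle-stimulating hormone (FSH), with 3 libraries at each time. Cells in both were seeded with 4.5 mg/mL Matrigel, in serum-free medium of which 50% was replaced every 24 h. The baseline libraries are technical replicates from 1 litter, so their p-values measure technical spread within that litter. Each induction library pools cultures of 1 of 3 litters, and litter was a term of the model. No untreated cultures of the same age were analysed here, so time in culture and the hormones cannot be told apart in the induction comparisons, and a 6 h sample named in the study design was not analysed here.

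The baseline libraries held 17259939 to 30400440 reads and the induction libraries 15793940 to 28298743 reads, so that 1 read was worth 0.0329 to 0.0579 and 0.0353 to 0.0633 CPM. Germ cell markers (7 genes) summed to 463 to 491 CPM in tissue and to 57.5 to 99.7 CPM in culture, while the peritubular myoid markers (7 genes) summed to 1414 to 1580 CPM in tissue and 3035 to 4841 CPM in culture. The Sertoli cell markers (8 genes) summed to 1954 to 2089 CPM in tissue and 2894 to 4023 CPM in culture, and the mesothelial markers (5 genes) to 3.51 to 5.32 CPM and 67.7 to 168 CPM. Of the 8 Sertoli markers 6, 5 and 4 rose on days 3, 5 and 7 and 1 fell on each. Of 3 mesothelial markers tested, 2 rose and 1 fell on each day. The mesothelial marker Bnc1 was at 2.72, 3.715 and 2.17 CPM in tissue and at most 0.423 CPM in culture. Of 6 endothelial markers tested, 1 rose and 4 fell on each day, and of 6 Leydig cell markers tested, 2 rose and 3 fell. The part of these cell types in the changes in culture was not tested. The T and NK cell markers (8 genes, Cd3g at 0 in every library) summed to 1.06 to 4.21 CPM in the baseline. In bulk RNA, fewer cells of a type and less RNA per cell cannot be told apart. The 2 experiments were fitted separately and levels are not compared between them.

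In culture, the chemokines Cxcl1 and Cxcl10, the cytokine Il24 and the chemokine receptor Cxcr4 were lower than in fresh tissue, and the chemokine Cxcl16 and the receptor chains Il1r1, Il1rl2 and Il17re were higher. On day 3, 23 of the 45 tested genes rose and 10 fell with limma at a Benjamini-Hochberg adjusted p under 0.05. This compares with 55.9% of all 13055 genes tested that were called, 29.1% upward and 26.8% downward. Of 26 receptor genes 18 rose and 2 fell, and of 17 ligand genes 4 rose and 8 fell. On day 5, 19 genes rose and 10 fell (59.9% of all genes called, 29.6% upward and 30.3% downward), with 14 receptors up and 2 down and 4 ligands up and 8 down. On day 7, 21 rose and 10 fell (60.0% of all genes called, 28.5% upward and 31.4% downward), with 15 receptors up and 2 down and 5 ligands up and 8 down. The median log2 change was 0.47, 0.39 and 0.32 on days 3, 5 and 7, against 0.016, -0.027 and -0.046 for all genes tested. The 3 comparisons share the tissue libraries. A total of 5 of the genes, Ccl2, Cxcl1, Cxcl9, Il15ra and Il24, passed the level filter through the tissue libraries alone and so had to be lower in culture. Another 6, Ccl11, Ccr7, Il16, Il18r1, Il1r2 and Il1rl1, passed through culture libraries alone, which favours a rise in the same way. Cxcr4, Il18 and Ccl7 reached 1 CPM in 5, 4 and 3 libraries, and without the tissue libraries would not have passed. This favours a fall. The counts by role include these genes, the difference between roles was not tested, and nothing is read from it.

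**Figure D1:**
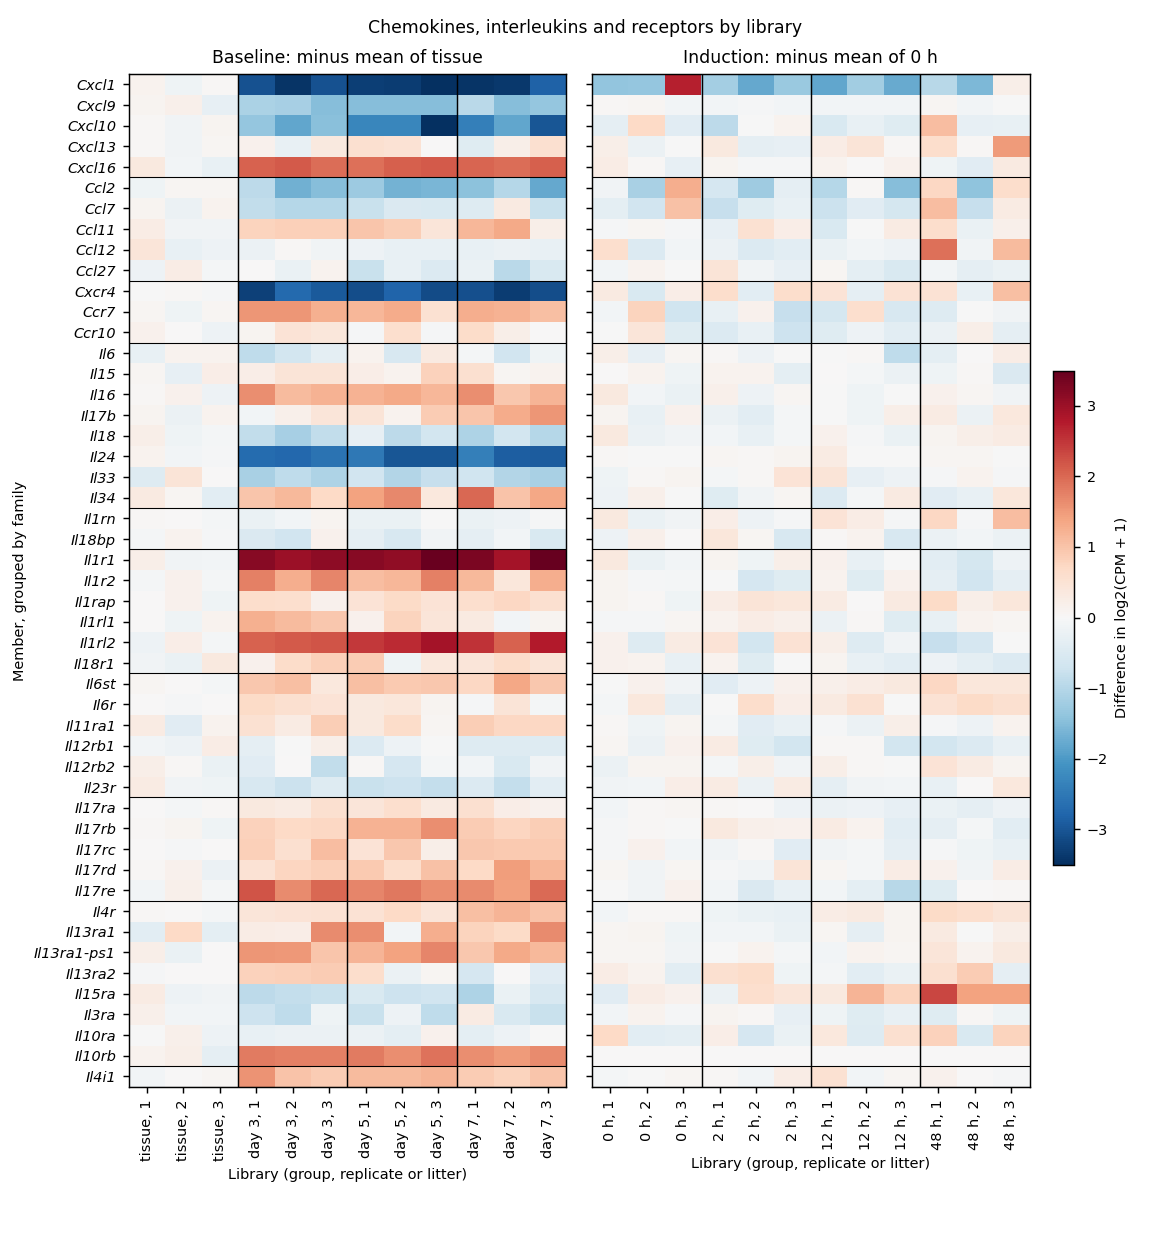
Each row is 1 of the 49 genes and each column 1 library, coloured by its log2(CPM + 1) minus the mean of tissue (left, baseline) or of 0 h (right, induction), with families separated by lines. The receptor rows lower in the left panel are mostly red in all 9 culture libraries, while Cxcl1, Cxcl9, Cxcl10, Ccl2, Cxcr4 and Il24 are blue, and Il10rb has no colour on the right because it is listed at 0 there.

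Cxcl1, a chemokine that draws neutrophils through Cxcr2, had the largest fall of the ligands named. It stood at 13.3, 10.9 and 12.4 CPM in tissue, at 0.604, 0.221 and 0.582 CPM on day 3 and at 0.230, 0.260 and 0.863 CPM on day 7. Every tissue library was above every culture library. Cxcl1 passed the level filter through tissue alone, so the direction was fixed and its p-values are no support for it. The log2 change, taken as everywhere here on log2(CPM + 1), which understates the change of low genes, was -3.18 ± 0.21 (SE, n = 3 libraries a group, limma adjusted p = 5.1e-08) on day 3 and -3.21 ± 0.21 (adjusted p = 3.6e-08) on day 7. Cxcl10, an interferon-induced chemokine that binds Cxcr3, stood at 12.3, 10.7 and 12.6 CPM in tissue, at 4.04, 2.65 and 3.70 CPM on day 3 and at 1.62, 1.65 and 0.106 CPM on day 5. It fell by 1.54 ± 0.34 on the log2 scale on day 3 (limma adjusted p = 0.0016) and by 2.70 ± 0.34 on day 5 (adjusted p = 1.4e-05), with no overlap with tissue. Its further difference between days 3 and 7, -0.87 ± 0.34, was not called (limma adjusted p = 0.22).

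Cxcl9, another interferon-induced ligand of Cxcr3, was at 2.02, 2.16 and 1.32 CPM in tissue, at 0.302, 0.258 and 0 CPM on day 3 and at 0 in all 3 day 5 libraries. Il24, a cytokine of the interleukin-10 family, was at 7.63, 6.51 and 6.81 CPM in tissue and between 0 and 0.516 CPM in the 9 culture libraries. Both fell on all 3 days, Il24 by 2.68 ± 0.20 on day 3 (limma adjusted p = 1.4e-07). Like Cxcl1, both passed the level filter through tissue alone, so the direction was fixed. Ccl2, which draws monocytes through Ccr2, was at 2.32, 2.84 and 2.86 CPM in tissue against 0.943, 0.147 and 0.317 CPM on day 3. It fell on all 3 days and had also passed the filter through tissue alone. Ccl7, a monocyte chemokine of the same gene cluster, was at 1.36, 0.917 and 1.45 CPM in tissue and 0.226, 0.111 and 0.106 CPM on day 3, and fell by 0.96 ± 0.24 (limma adjusted p = 0.0043). Its day 7 libraries, at 0.631, 1.78 and 0.304 CPM, overlapped tissue and it was not called there (adjusted p = 0.30). Its call on day 5 (adjusted p = 0.042) was lost in edgeR, in DESeq2 and without any 1 of 8 libraries, among them each of the day 3 and day 5 libraries and tissue replicates 1 and 3. Ccl7 would not have passed the level filter without the tissue libraries, which favours a fall.

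Among the interleukins, Il18 and Il33 fell and Il6 was not called. Il33, an alarmin of the interleukin-1 family, was at 2.32, 5.23 and 3.58 CPM in tissue and at 1.09, 1.47 and 1.16 CPM on day 3, and fell on all 3 days (day 3 log2 change -1.03 ± 0.22, limma adjusted p = 0.0015). Il18, also of that family, was at 1.89, 1.24 and 1.38 CPM in tissue and at 0.377, 0.111 and 0.370 CPM on day 3 (-0.96 ± 0.21, adjusted p = 0.0015), and its day 5 call was lost in edgeR, in DESeq2 and without tissue replicate 1 or day 5 replicate 2. Il18 overlaps the germ cell gene Tex12 in the RefSeq annotation of build GRCr8, and in these libraries that carry no strand reads of overlapping genes cannot be told apart. Tex12 had a mean of 5.09 CPM in tissue and 0.418 CPM on day 3. Il18 would not have passed the level filter without the tissue libraries, which favours a fall. Il6 stood at 0.789, 1.33 and 1.32 CPM in tissue and 0.151, 0.368 and 0.687 CPM on day 3. Its change of -0.62 ± 0.25 was not called (limma adjusted p = 0.052), although 10 of 20 alternatives called it. On day 5, at 1.33, 0.444 and 1.64 CPM, and on day 7, at 1.03, 0.347 and 0.913 CPM, it overlapped tissue and was not called (limma adjusted p = 0.90 and 0.33).

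Markers of immune cells were mixed beside these ligands. The macrophage list (12 genes, none at 0 in every library) summed to 52.1 to 64.2 CPM in tissue, 27.3 to 43.0 CPM on day 3 and 22.3 to 26.8 CPM on day 7. Of 8 tested, 1 rose (Adgre1) on each day, while 2, 1 and 3 fell on days 3, 5 and 7, Tyrobp on all of them, from a mean of 23.8 CPM in tissue to 1.88 CPM on day 3. The list's median log2 change was -0.08, -0.20 and -0.42 on the 3 days. The B cell list (5 genes) summed to 13.4 to 14.9 CPM in tissue and 16.8 to 27.2 CPM in culture, and the 1 T and NK cell gene tested was not called. The neutrophil list (8 genes) summed to 15.1 to 15.6 CPM in tissue and 0.645 to 2.54 CPM in culture. In tissue nearly all of that was Csf3r, at 14.3, 14.3 and 15.3 CPM, while Elane was at 0 in every library and S100a8 and S100a9 were at or below 0.132 CPM. The part of these cells in the fall of the ligands was not tested.

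The promoters of Cxcl1, Cxcl10, Ccl7, Il6 and Il1r1 are shown because Cxcl1 and Cxcl10 fell, Il1r1 had the largest rise in culture, Ccl7 fell on days 3 and 5, Il6 is a ligand that was not called, and each holds a match to the NF-kB consensus, the site bound by the factor through which interleukin-1 receptors signal. Each line gives the 250 bases before the annotated start, 5′ to 3′ on the gene's strand, from the RefSeq promoter table of build GRCr8, with bases matching the consensus on either strand in capitals.
Cxcl1: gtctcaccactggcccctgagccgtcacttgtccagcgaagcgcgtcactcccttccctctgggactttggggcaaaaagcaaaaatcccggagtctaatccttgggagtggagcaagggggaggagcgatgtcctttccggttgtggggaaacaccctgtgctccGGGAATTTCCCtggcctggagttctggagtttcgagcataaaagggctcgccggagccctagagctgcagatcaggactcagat
Cxcl10: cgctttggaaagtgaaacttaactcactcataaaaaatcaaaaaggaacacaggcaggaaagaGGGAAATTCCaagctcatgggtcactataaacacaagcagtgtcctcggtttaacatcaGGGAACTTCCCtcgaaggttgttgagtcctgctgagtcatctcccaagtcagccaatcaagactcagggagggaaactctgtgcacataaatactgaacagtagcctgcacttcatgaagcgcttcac
Ccl7: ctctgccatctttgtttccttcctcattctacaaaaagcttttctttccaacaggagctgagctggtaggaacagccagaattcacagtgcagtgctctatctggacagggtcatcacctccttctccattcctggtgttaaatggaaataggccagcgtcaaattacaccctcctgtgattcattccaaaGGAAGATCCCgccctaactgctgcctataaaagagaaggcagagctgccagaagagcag
Il6: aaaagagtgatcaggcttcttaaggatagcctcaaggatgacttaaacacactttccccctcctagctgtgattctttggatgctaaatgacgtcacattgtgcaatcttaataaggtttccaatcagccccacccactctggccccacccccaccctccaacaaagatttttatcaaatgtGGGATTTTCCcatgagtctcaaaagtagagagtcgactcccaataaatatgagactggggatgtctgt
Il1r1: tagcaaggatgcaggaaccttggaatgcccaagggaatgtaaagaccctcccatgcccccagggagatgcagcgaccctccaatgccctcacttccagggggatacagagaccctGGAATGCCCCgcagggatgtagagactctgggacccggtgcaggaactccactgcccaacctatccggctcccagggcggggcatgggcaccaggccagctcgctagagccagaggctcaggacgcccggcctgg

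These windows lie at chr14:17479322-17479571 (minus strand) for Cxcl1, chr14:15988816-15989065 (plus) for Cxcl10, chr10:67513845-67514094 (plus) for Ccl7, chr4:5894576-5894825 (minus) for Il6 and chr9:50034133-50034382 (plus) for Il1r1. The bases between a match and the start number 74 and 73 in Cxcl1, 177, 118 and 117 in Cxcl10, 49 in Ccl7, 58 in Il6 and 125 in Il1r1. The matches at 74 and 73 in Cxcl1, and those at 118 and 117 in Cxcl10, overlap on opposite strands. A promoter entry was found for 38 of the 49 genes. The NF-kB consensus was in 8 of them (21.1%), against 6.33% of all 33469 promoters of the same length. The AP-1 motif TGANTCA was in 5 (13.2% against 6.34%) and the STAT motif TTCNNNGAA in 3 (7.89% against 7.67%). The interferon-stimulated response element, GAAA and GAAA set 2 bases apart, was in 4, namely Cxcl10, Il12rb1, Il23r and Il6st (10.5% against 3.41%). All were searched on both strands. The Ccl7 and Cxcl10 windows also hold TGANTCA. Genes with the NF-kB match went both ways: Cxcl1 and Cxcl10 fell on every day, and Il1r1, Il1rap and Il4i1 rose on every day. Ccl7 was called on some days only, and Il6 and Il12rb2 on none. The direction of Cxcl1 was fixed by the level filter, and the part of NF-kB in these changes was not tested.

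**Figure D2:**
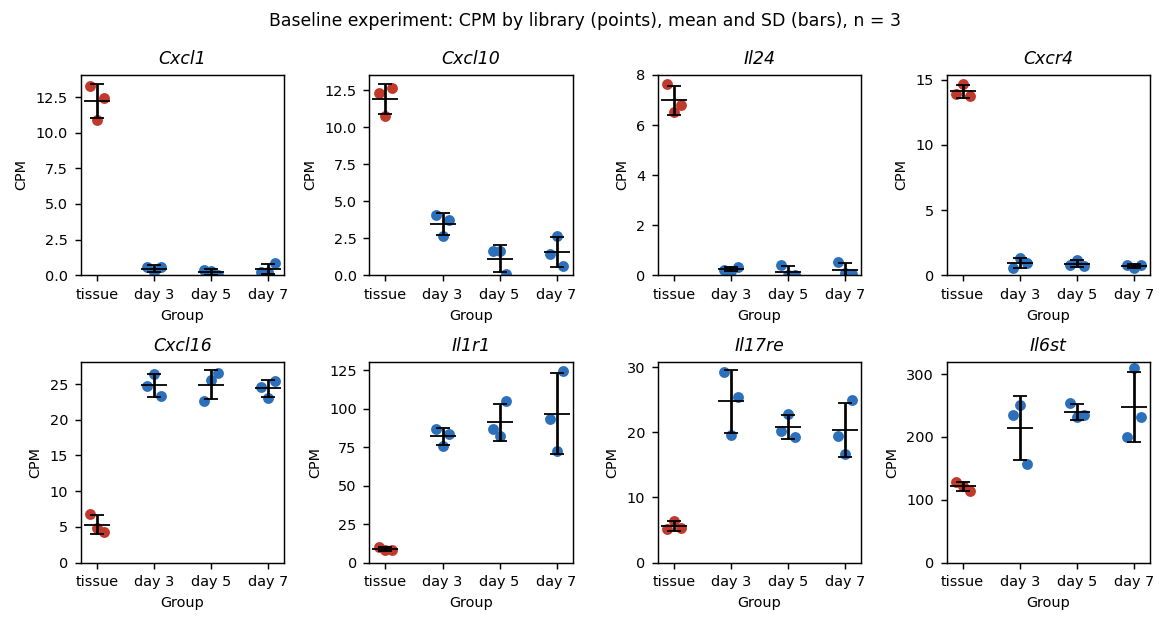
CPM of 8 genes in each baseline library (points), with the mean and SD of each group of 3 libraries (bars). In the upper row the 3 tissue libraries of Cxcl1, Cxcl10, Il24 and Cxcr4 lie above all culture libraries, and in the lower row those of Cxcl16, Il1r1, Il17re and Il6st lie below them.

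A smaller group of ligands rose on all 3 days, namely Cxcl16, Ccl11, Il16 and Il34. Cxcl16, a ligand of Cxcr6 that is also made as a membrane-bound scavenger receptor, was at 6.84, 4.86 and 4.24 CPM in tissue and at 24.8, 26.4 and 23.3 CPM on day 3. It stayed between 22.6 and 26.6 CPM in the later culture libraries, with no overlap with tissue. Its log2 change was 2.05 ± 0.15 on day 3 (limma adjusted p = 1.4e-07) and 2.03 ± 0.15 on day 7 (adjusted p = 1.2e-07). It overlaps Zmynd15, whose mean was 0.503 CPM in tissue and 1.05 CPM on day 3.

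Il34, a ligand of the macrophage receptor Csf1r, was at 1.18, 0.826 and 0.362 CPM in tissue, 2.45, 2.87 and 1.85 CPM on day 3 and 6.14, 2.52 and 3.501 CPM on day 7 (1.46 ± 0.33, limma adjusted p = 0.0019). Its day 3 call (0.94 ± 0.33, adjusted p = 0.028) was lost without tissue replicate 2 or 3 or without day 3 replicate 1 or 2. Il16, a chemoattractant that binds Cd4, was at 0.482, 0.596 and 0.263 CPM in tissue and 3.43, 2.10 and 2.38 CPM on day 3 (1.32 ± 0.21, limma adjusted p = 0.00011). Ccl11, the eotaxin that draws eosinophils, was at 0.351, 0.0459 and 0.0329 CPM in tissue and 0.943, 1.03 and 1.00 CPM on day 3 (0.81 ± 0.26, adjusted p = 0.018). Its calls rest on few reads and were lost without tissue replicate 2 or 3 on days 3 and 5, without day 5 replicate 1 or 2 on day 5 and without day 7 replicate 2 on day 7. Il16 and Ccl11 passed the level filter through culture alone, which favours a rise. Il17b, a ligand of Il17rb, rose later. It was at 4.87, 3.71 and 4.93 CPM in tissue, 4.15, 5.20 and 6.34 CPM on day 3 and 9.64, 12.5 and 14.9 CPM on day 7, where all libraries were above tissue (1.26 ± 0.22, limma adjusted p = 0.00023).

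Il15, which supports natural killer and memory T cells, and Cxcl13, a B cell chemokine, were not called on any day, with log2 changes of 0.25 to 0.39 and 0.08 to 0.36. Ccl27, a skin-homing chemokine that overlaps Il11ra1, fell by 0.57 ± 0.22 on day 7 alone among the 3 days (limma adjusted p = 0.038), and edgeR, DESeq2 and the fits without tissue replicate 2 or 3 or without day 7 replicate 2 or 3 lost that call.

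Among the chemokine receptors, Cxcr4 fell and Ccr7 rose on all 3 days. Cxcr4, the receptor of Cxcl12 that in mouse is known from spermatogonia as well as leukocytes, was at 13.9, 14.7 and 13.8 CPM in tissue and between 0.520 and 1.29 CPM in all 9 culture libraries. Cxcr4 would not have passed the level filter without the tissue libraries, which favours a fall. The change was -2.98 ± 0.18 on day 3 (limma adjusted p = 2.3e-08) and -3.16 ± 0.18 on day 7 (adjusted p = 1.0e-08). The germ cell markers fell beside it, Ddx4 from 38.5, 40.3 and 38.1 CPM in tissue to 0.830, 3.69 and 3.65 CPM on day 3, and the part of germ cells in the Cxcr4 change was not tested. Its ligand Cxcl12 fell as well, by 1.07 ± 0.29 on day 3 (limma adjusted p = 0.0070), from 11.1, 9.13 and 9.24 to 3.89, 4.39 and 4.18 CPM.

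Ccr7, which guides lymphocytes and dendritic cells toward Ccl19 and Ccl21, was at 0.482, 0.275 and 0.493 CPM in tissue and 3.09, 3.10 and 2.38 CPM on day 3 (1.44 ± 0.20, limma adjusted p = 4.7e-05). All culture libraries, the lowest at 1.06 CPM on day 5, were above tissue. Ccr7 passed the level filter through culture alone, which favours a rise. Its ligand genes were below the level filter, Ccl19 at no more than 0.263 CPM in any library and Ccl21 at 1.05, 0.780 and 0.658 CPM in tissue and at most 0.130 CPM in culture. Ccr10, the receptor of Ccl27 and Ccl28, was not called on any day (limma adjusted p from 0.22 to 0.54).

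The interleukin-1 receptor family held Il1r1 and Il1rl2, the genes with the largest log2 rises of the 45 on each of the 3 days. Il1r1, the signalling receptor of interleukin-1 alpha and beta, was at 10.2, 7.89 and 8.12 CPM in tissue, at 86.6, 76.0 and 83.4 CPM on day 3 and at 93.3, 72.3 and 125 CPM on day 7. Tissue and culture were far apart in every library. The ratio of the group means was 9.38 on day 3 and 11.1 on day 7, and the log2 changes were 3.10 ± 0.17 (limma adjusted p = 1.1e-08) and 3.30 ± 0.17 (adjusted p = 5.0e-09). Its co-receptor Il1rap was at 7.24, 7.98 and 6.32 CPM in tissue and 11.3, 12.5 and 11.1 CPM on day 7 (0.63 ± 0.16, limma adjusted p = 0.0036). The smaller Il1rap rise on day 3 (0.46 ± 0.16, adjusted p = 0.025) was lost without tissue replicate 1 or 3 or without day 3 replicate 1 or 2. The decoy receptor Il1r2, which binds interleukin-1 without signalling, had reads in 1 of 3 tissue libraries (0, 0.183 and 0 CPM) and stood at 2.57, 1.55 and 2.48 CPM on day 3 and 1.32, 0.390 and 1.57 CPM on day 7, a rise on each day.

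Il1rl2, the receptor of the interleukin-36 cytokines, was at 1.89, 2.80 and 2.10 CPM in tissue, 12.7, 13.2 and 14.01 CPM on day 3 and 17.1, 18.9 and 23.2 CPM on day 5. No library overlapped tissue, and the changes were 2.14 ± 0.19 (limma adjusted p = 7.1e-07) and 2.67 ± 0.19 (adjusted p = 8.5e-08). Il1rl1, the interleukin-33 receptor, rose for a time. It was at 0.219, 0.0917 and 0.329 CPM in tissue, 1.85, 1.58 and 1.32 CPM on day 3 (1.09 ± 0.20, limma adjusted p = 0.00041) and 0.516, 0.130 and 0.304 CPM on day 7. The fall from day 3 to day 7 was called (-0.98 ± 0.20, adjusted p = 0.015), though not without day 3 replicate 1 or 2 or day 7 replicate 2 or 3. Il18r1, the binding chain for interleukin-18, was not called (log2 changes 0.37 to 0.55). Of the 6 receptors of the family 5 rose on day 3 and 4 on each of days 5 and 7, where 29.1%, 29.6% and 28.5% of all genes rose. Il1r2, Il1rl1 and Il18r1 are among those that passed the level filter through culture alone.

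**Figure D3:**
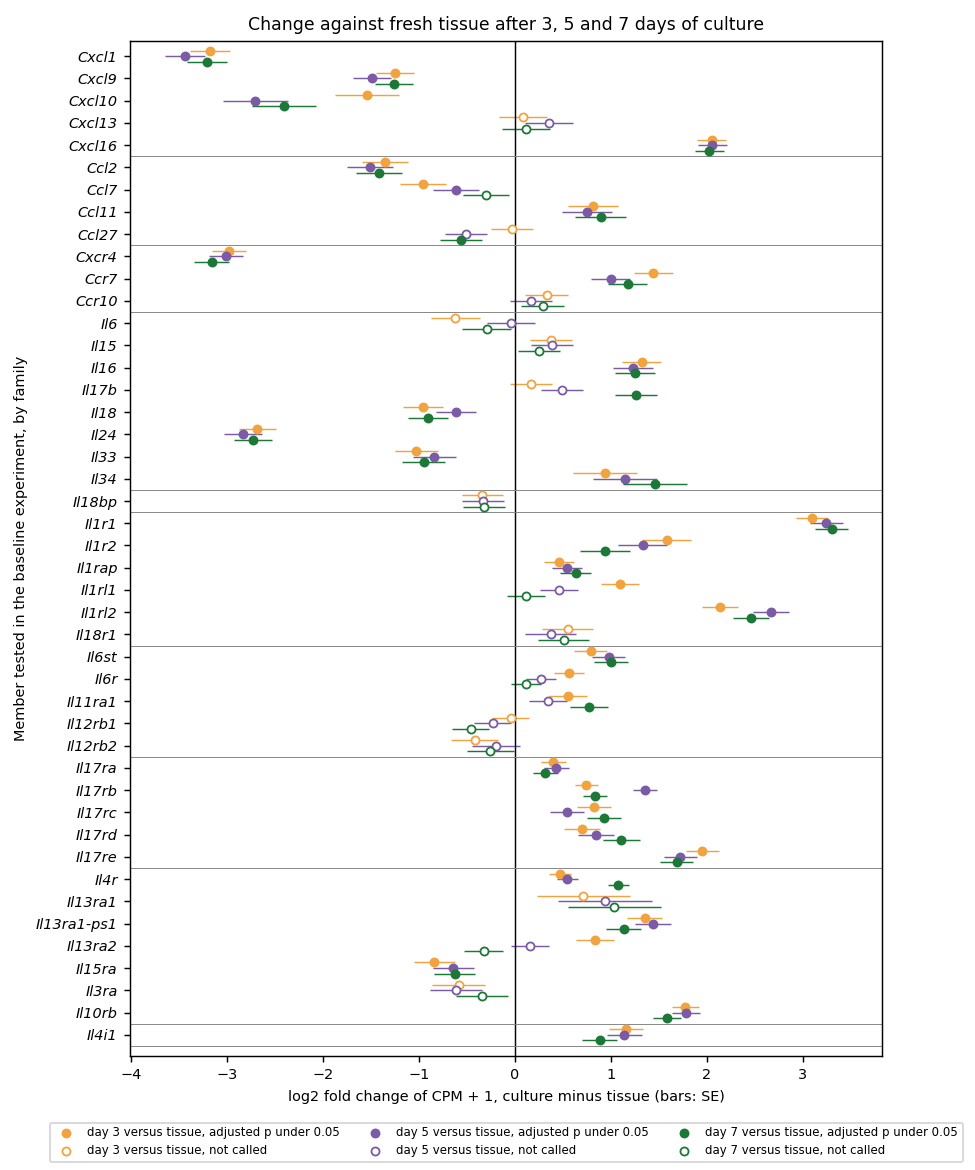
Points are the limma log2 changes of the 45 tested genes against tissue on days 3 (orange), 5 (purple) and 7 (green), with bars for the SE and filled points for an adjusted p under 0.05. Cxcl1, Cxcr4 and Il24 lie furthest left and Il1r1 furthest right, all 5 interleukin-17 receptor genes are filled to the right on all days, and the day 5 point of Cxcl9 comes from libraries that are all at 0.

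All 5 interleukin-17 receptor genes rose on all 3 days, which share the tissue libraries, against 28.5 to 29.6% of all genes that rose. Il17re, the chain that binds interleukin-17C, rose most of these, from 5.13, 6.42 and 5.23 CPM in tissue to 29.2, 19.6 and 25.4 CPM on day 3, with no overlap (1.95 ± 0.18, limma adjusted p = 8.7e-07). Il17rb, which binds interleukin-17B and interleukin-25, was at 26.1, 27.5 and 22.9 CPM in tissue, 45.3, 41.6 and 42.9 CPM on day 3 and 60.5, 60.4 and 80.4 CPM on day 5 (1.35 ± 0.12, limma adjusted p = 8.1e-07). It overlaps Chdh, whose mean was 5.53 CPM in tissue and 24.0 CPM on day 3, and Actr8. Il17rd, a chain also known to restrain fibroblast growth factor signalling, was at 11.4, 12.3 and 9.44 CPM in tissue and 18.6, 31.9 and 25.9 CPM on day 7 (1.11 ± 0.19, limma adjusted p = 0.00019), and it overlaps Arhgef3, which went the other way, from a mean of 151 CPM in tissue to 77.2 CPM. The shared chain Il17ra changed least, from 31.3, 29.4 and 31.7 CPM to 38.9, 38.1 and 46.3 CPM on day 3 (0.40 ± 0.13, limma adjusted p = 0.017). That call was lost without tissue replicate 2 or day 3 replicate 3, and its day 7 call (adjusted p = 0.045) was lost in 9 of 20 alternatives, among them those without any 1 of the tissue libraries or without day 3 replicate 1, day 5 replicate 1 or day 7 replicate 1 or 2. Il17rc, the partner chain for interleukin-17A and 17F, rose by 0.54 to 0.93, and its day 5 call was lost without day 5 replicate 2.

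Il6st, or gp130, the signalling chain shared by interleukin-6, interleukin-11 and leukaemia inhibitory factor, was at 128, 121.5 and 114 CPM in tissue, 235, 251 and 156 CPM on day 3 and 200, 310 and 232 CPM on day 7. The culture libraries were all above tissue, and the log2 change was 0.79 ± 0.17 on day 3 (limma adjusted p = 0.0016) and 1.00 ± 0.17 on day 7 (adjusted p = 0.00022). Il6r, the interleukin-6 binding chain, was at 10.2, 9.63 and 10.2 CPM in tissue and 16.5, 15.2 and 14.3 CPM on day 3 (0.57 ± 0.16, limma adjusted p = 0.0077), and on day 7 it was at 9.70, 14 and 9.59 CPM and overlapped tissue. Il11ra1, the interleukin-11 chain, rose on days 3 and 7, and the day 3 call was lost without tissue replicate 2 or day 3 replicate 1 or 3. The interleukin-12 receptor chains Il12rb1 and Il12rb2, which T and NK cells use, were not called on any day (log2 changes -0.46 to -0.04).

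Il4r, the chain that binds interleukin-4 and pairs with Il13ra1 for interleukin-13, rose in steps. It was at 18.02, 17.8 and 16.5 CPM in tissue, 23.6, 24.5 and 25.3 CPM on day 3 and 37.5, 40.7 and 35.7 CPM on day 7. No 2 of these groups overlapped. The change against tissue was 0.47 ± 0.11 on day 3 (limma adjusted p = 0.0029) and 1.08 ± 0.11 on day 7 (adjusted p = 2.4e-06), and the step from day 3 to day 7 was called (0.61 ± 0.11, adjusted p = 0.0089) except without day 3 replicate 1. The decoy Il13ra2 rose on day 3 as well and then fell. It was at 9.52, 9.86 and 9.84 CPM in tissue, 17.6, 18.02 and 18.8 CPM on day 3 and 6.14, 9.84 and 7.10 CPM on day 7, and it fell by 1.16 ± 0.20 from day 3 to day 7 (limma adjusted p = 0.0069).

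Il13ra1 was split in the table between the gene and a row for its pseudogene Il13ra1-ps1, which held most of the reads, and how near-identical reads were shared between them is uncertain. Summed, the pair stood at 15.3, 13.2 and 13.5 CPM in tissue and 40.2, 39.6 and 31.7 CPM on day 3. The sum rose on all 3 days, by 1.34 ± 0.15 on day 3 (limma adjusted p = 5.4e-06). Il13ra1 alone was not called and Il13ra1-ps1 alone was. Il10rb, a chain shared by the receptors of interleukin-10, interleukin-22 and the lambda interferons, was at 8.46, 8.85 and 5.89 CPM in tissue and 29.2, 28.0 and 28.5 CPM on day 3 (1.78 ± 0.14, limma adjusted p = 3.6e-07). It was listed at 0 in all 12 induction libraries. Il10rb is 1 of 218 genes whose mean exceeded 20 CPM in either experiment but lay below 1 CPM in the other one. Its 0 is not read as a level.

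Il15ra, which presents interleukin-15 to neighbouring cells, fell, from 1.89, 1.10 and 1.18 CPM in tissue to 0.264, 0.332 and 0.370 CPM on day 3 (-0.84 ± 0.22, limma adjusted p = 0.0047). It passed the level filter of this experiment through tissue alone, so the direction was fixed. The day 5 and day 7 calls were lost without tissue replicate 1, without day 5 replicate 2 on day 5 and without day 7 replicate 1 on day 7, and the day 7 call also in edgeR and DESeq2. Il3ra, the interleukin-3 chain, had lower means in culture that were not called (limma adjusted p from 0.067 to 0.30). Il18bp, the secreted inhibitor of interleukin-18 and 1 inhibitor tested in this experiment, was not called (log2 changes -0.34 to -0.32). Il4i1, an amino acid oxidase that shares only the interleukin name, rose from 2.19, 2.43 and 2.57 CPM to 9.17, 5.82 and 5.23 CPM on day 3 (1.16 ± 0.18, limma adjusted p = 0.00012). It overlaps Atf5, whose mean was 22.8 CPM in tissue and 56.2 CPM on day 3, and Nup62.

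Within culture, few genes differed between days 3 and 7. Il17b and Il4r rose and Il13ra2 and Il1rl1 fell, 4 of 45 against 3.79% of all genes called (1.36% upward and 2.44% downward). Il17b rose by 1.09 ± 0.22 (limma adjusted p = 0.014) from 4.15, 5.20 and 6.34 to 9.64, 12.5 and 14.9 CPM, and the call was lost without day 3 replicate 1 or day 7 replicate 3. Without day 3 replicate 1 the count fell to 1 and without day 7 replicate 3 the count was 2.

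The signalling genes downstream of these receptors, taken from lists that do not overlap the 49 genes, were mixed. Of 17 tested genes of the JAK, STAT and SOCS list, 10 rose and 3 fell on day 3 and 10 rose and 6 fell on day 7, with a median log2 change of 0.48 on day 3 against 0.016 for all genes. Stat3, the main STAT below gp130, was at a mean of 95.4 CPM in tissue and 335 CPM on day 5 (1.79 ± 0.11, limma adjusted p = 3.5e-08). Stat6, the STAT below the interleukin-4 receptor, rose by 1.17 ± 0.11 on day 3, while the feedback inhibitor Socs1 fell by 1.07 ± 0.32. Of 24 tested genes of the NF-kB and interleukin-1 receptor signalling list, 10 rose and 7 fell on day 3 and 5 rose and 8 fell on day 7. Of all genes, 29.1% rose and 26.8% fell on day 3 and 28.5% rose and 31.4% fell on day 7, and nothing particular to these lists is read from their counts. Nfkbiz, an NF-kB cofactor induced by interleukin-1, fell from a mean of 40.8 CPM in tissue to 4.52 CPM on day 7 (-2.93 ± 0.21, limma adjusted p = 9.9e-08), and Rel fell with it, while Irak4, the kinase at the receptor, rose by 1.18 ± 0.14 on day 3.

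Other chemokine system genes gave 5 rises and 3 falls of 9 tested on day 3. Cx3cl1, a membrane-bound chemokine, fell from a mean of 139 CPM in tissue to 43.0 CPM on day 5, and the scavenger receptor Ackr3 fell by 0.62 ± 0.20 on day 3 (limma adjusted p = 0.016). Of 22 other cytokine and receptor genes 11 rose and 3 fell on day 3, beside the same shares of all genes. Nothing particular to these lists is read from the counts. Osmr, the oncostatin M receptor that pairs with Il6st, was at a mean of 1.85 CPM in tissue and 51.1 CPM on day 5 (4.18 ± 0.22, limma adjusted p = 5.7e-09). Csf1, the macrophage growth factor, rose from a mean of 12.0 CPM in tissue to 38.9 CPM on day 5 (1.61 ± 0.13, adjusted p = 3.4e-07).

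After LH and FSH, few of the genes changed. The called genes were receptor chains, as were 24 of the 39 tested genes, and nothing is read from their role. At 2 h and at 12 h none of 39 tested genes was called against 0 h by limma, edgeR or DESeq2, with 6 and 4 at an unadjusted p under 0.05, and 0.618% (0.329% upward and 0.289% downward) and 0% of all 12450 genes tested were called by limma. At 48 h, Il4r, Il15ra and Il6r rose and Il1r1 fell, 4 of 39 against 4.35% of all genes (2.22% upward and 2.13% downward), with 13 at an unadjusted p under 0.05. From 2 to 12 h Il4r rose, 1 of 39 against 2.96% of all genes (1.17% upward), with 6 at an unadjusted p under 0.05. From 12 to 48 h none was called by limma or edgeR and 1 by DESeq2, with 9 at an unadjusted p under 0.05 and 0.715% of all genes called (0.434% upward and 0.281% downward). Unadjusted p-values of limma were under 0.05 for 2277, 1000 and 2953 of all 12450 genes at 2, 12 and 48 h. From 2 to 12 h and from 12 to 48 h they were so for 2881 and 1662 of all genes. Nothing is read from the unadjusted counts. The median log2 change at 48 h was 0.03 against -0.034 for all genes, and the comparisons with 0 h share the 0 h libraries.

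Il4r was at 33.9, 37.4 and 36.8 CPM at 0 h in litters 1, 2 and 3, at 32.2, 30.5 and 30.0 CPM at 2 h, at 43.6, 44.8 and 38.7 CPM at 12 h and at 57.6, 54.7 and 49.9 CPM at 48 h. Every litter was lower at 2 h than at 0 h and higher at 48 h than at any earlier time, and the 48 h libraries did not overlap the others. The rise was 0.57 ± 0.07 at 48 h against 0 h (SE, n = 3 litters, limma adjusted p = 0.0030), with 0.75, 0.54 and 0.43 in the 3 litters. It was also called by edgeR and DESeq2 and was lost without litter 1 or without litter 2. From 2 to 12 h the rise was 0.44 ± 0.07 (limma adjusted p = 0.026), and 10 of 23 alternatives lost it, among them those without litter 1, 2 or 3, without 2 h replicate 1 or 2, and without any 1 of the 12 h libraries. The dip at 2 h, -0.21 ± 0.07, was not called (adjusted p = 0.15).

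Il15ra was at 0.0958, 0.708 and 0.592 CPM at 0 h, 0.829, 2.28 and 1.48 CPM at 12 h and 6.30, 2.79 and 2.84 CPM at 48 h. All 3 litters were highest at 48 h, litter 1 by the most. The change was 1.72 ± 0.31 (limma adjusted p = 0.014), 2.74, 1.15 and 1.27 by litter, and it was lost without any 1 of the 0 h libraries and without litter 2 or litter 3. Its ligand Il15 was at 4.26, 4.62 and 3.71 CPM at 0 h and 3.70, 4.34 and 2.66 CPM at 48 h, which was not called (-0.20 ± 0.12, limma adjusted p = 0.34).

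Il6r was at 9.15, 12.7 and 7.496 CPM at 0 h and 14, 15.7 and 14.6 CPM at 48 h, a rise of 0.58 ± 0.13 (limma adjusted p = 0.036) in 3 of 3 litters. The call was lost in 12 of 23 alternatives, among them those without any 1 of the 0 h libraries, 12 h replicate 2, 48 h replicate 1 or 3 or any 1 litter. Its neighbour She, which it overlaps, had means of 8.94 CPM at 0 h and 10.1 CPM at 48 h. The partner Il6st was at 374, 418 and 348 CPM at 0 h and 629, 498 and 502 CPM at 48 h. The groups did not overlap, and the difference of 0.51 ± 0.13 was just short of the threshold in limma (adjusted p = 0.054) and was called by DESeq2 and without 2 h replicate 1 or 3.

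Il1r1 was at 191, 128 and 142 CPM at 0 h and 117, 97.8 and 133 CPM at 48 h, lower in every litter but with overlap between the groups. The log2 change was -0.71, -0.39 and -0.09 by litter and -0.39 ± 0.10 in the fit (limma adjusted p = 0.044). This call was lost in 15 of 23 alternatives, with edgeR and with TMM-scaled library totals among them, and without any 1 of the first or second replicates of each time or litters 1 or 2. Il1rap moved the other way in all 3 litters, from 8.14, 7.78 and 6.75 CPM to 12.5, 8.79 and 10.2 CPM, and was not called (0.42 ± 0.13, limma adjusted p = 0.092). Neither Il1r2, Il1rl2 nor the 5 interleukin-17 receptors were called at any time.

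**Figure D4:**
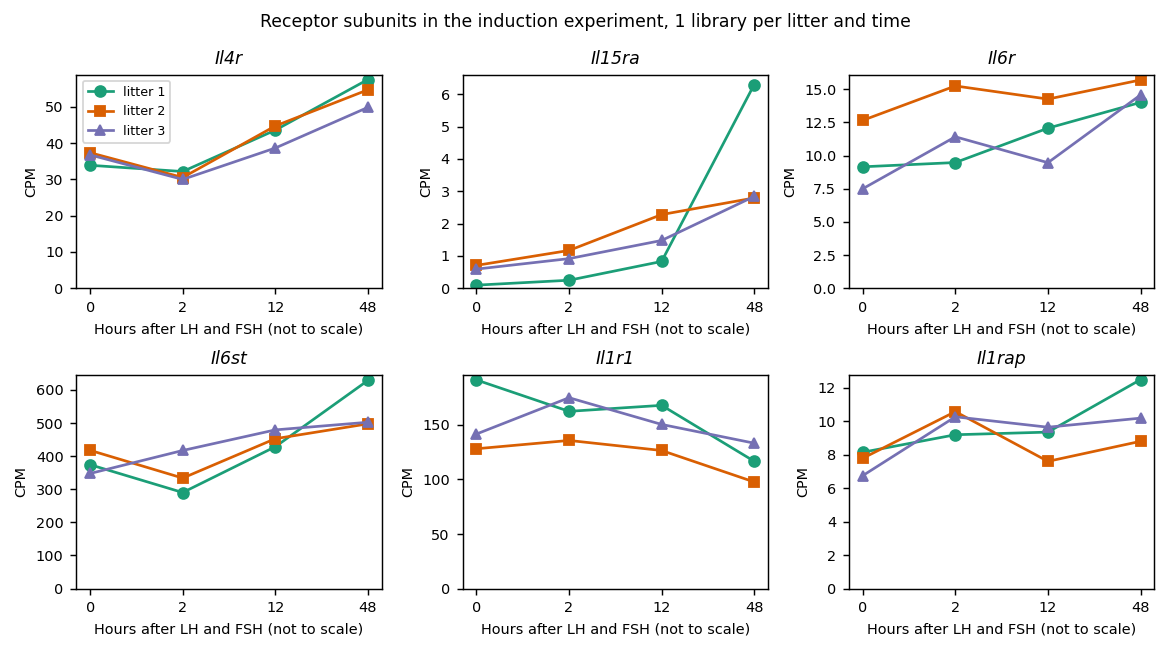
CPM of 6 receptor chains before (0 h) and 2, 12 and 48 h after LH and FSH, with 1 line per litter and 1 library per point. The Il4r lines of the 3 litters run together and end at 49.9 to 57.6 CPM, while litter 1 alone reaches 6.30 CPM for Il15ra.

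The monocyte chemokines differed widely between litters. Ccl2 was at 1.58, 0.291 and 5.76 CPM at 0 h and 3.64, 0.0594 and 3.31 CPM at 48 h, and Ccl7 at 0.623, 0.291 and 3.19 CPM and 3.33, 0.178 and 1.54 CPM. Ccl12, another ligand of Ccr2, was at 1.10, 0 and 0.316 CPM at 0 h and 4.30, 0.297 and 2.01 CPM at 48 h. Litters 1 and 3 were high and litter 2 low at 48 h in all 3 genes, and none was called (limma adjusted p of 0.98, 0.82 and 0.11). Ccl12 passed the threshold when the 48 h library of litter 2 was left out (adjusted p = 0.026) and in no other alternative. Cxcl1 was at 0.479, 0.499 and 24.3 CPM at 0 h, so that 1 library of litter 3 stood apart, and at no more than 3.37 CPM in any later library. It did not pass the level filter in that experiment and was not tested there.

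At 48 h the macrophage markers were also high in litters 1 and 3 and low in litter 2. Their sum was 84.7, 27.1 and 35.3 CPM at 0 h, 74.3, 34.3 and 107 CPM at 12 h and 172, 27.6 and 218 CPM at 48 h, and Csf1r was at 29.9, 3.03 and 37.0 CPM at 48 h. At 0 h Ccl2 and Ccl7 were highest in litter 3, and Ccl12 and the marker sum in litter 1. At 2 h Ccl2, at 0.883, 0.195 and 1.28 CPM, and the marker sum, at 71.35, 18.51 and 42.06 CPM, were lowest in litter 2. At 12 h Ccl2, at 0.414, 1.90 and 0 CPM (9, 30 and 0 reads), was highest in litter 2. The marker sum was lowest there. Ccl7, at 5, 9 and 6 reads, and Ccl12, at 4, 5 and 4 reads, were too low at 12 h to rank the litters. Of 11 tested macrophage markers 1, Mrc1, rose at 48 h (1.01 ± 0.25, limma adjusted p = 0.047), with overlap between the groups, and Cd163 was at 0 in all 3 libraries at 48 h. Il10ra, the interleukin-10 receptor chain of blood cells, was likewise lowest in litter 2, at 2.06, 0.458 and 0.473 CPM at 0 h and 2.30, 0.297 and 2.19 CPM at 48 h, and was not called (limma adjusted p = 0.41). Il1rn, the interleukin-1 receptor antagonist, was at 0.910, 0.291 and 0.395 CPM at 0 h and 1.51, 0.475 and 2.19 CPM at 48 h (0.59 ± 0.23, adjusted p = 0.15). Litter 2 was the lowest at 48 h in each. The part of macrophages in these values was not tested.

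**Figure D5:**
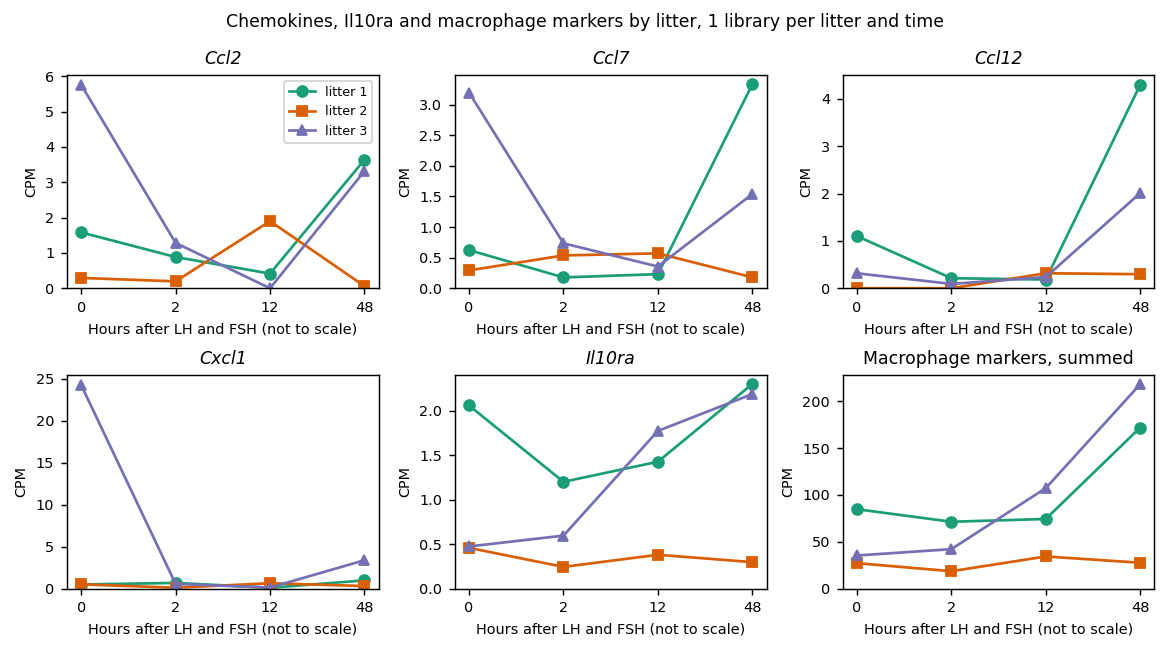
CPM of 5 genes and the sum of 12 macrophage markers by litter before (0 h) and 2, 12 and 48 h after LH and FSH, with 1 library per point. At 48 h litters 1 and 3 are above litter 2 in every panel, and the 0 h library of litter 3 stands apart at 24.3 CPM for Cxcl1.

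Cxcl12 was called higher at 48 h, at 35.8, 11.2 and 13.1 CPM against 5.27, 5.99 and 7.73 CPM at 0 h (1.35 ± 0.30, limma adjusted p = 0.034), and its receptor Cxcr4, at 2.36, 0.951 and 3.85 CPM against 1.92, 0.624 and 1.74 CPM, was not (0.43 ± 0.15, adjusted p = 0.12). Il17b, Cxcl16, Il34 and Il6 were not called in any induction comparison.

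Of the 72 names that the level filter left out, 66 were under 1 CPM in all 24 libraries and 10 of these were at 0 throughout. Just inside it, Il23r reached 1 CPM in 3 induction libraries, at 1.09, 1.10 and 1.18 CPM. Just outside it, Il1b was at 2.60 and 2.43 CPM in litters 1 and 3 at 48 h and under 1 CPM in every other library, and Cxcl14 was at 1.51 and 1.48 CPM in 2 tissue libraries. Il11, Il23a and Ccl21 also reached 1 CPM in 1 or 2 libraries of an experiment. Of the 49 genes, 12 overlap another listed protein-coding gene in the RefSeq annotation, and their values may hold reads of that neighbour.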

How the data were processed

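Poly-A RNA from 24 libraries was sequenced without strand information, per the labels' protocols. Reads were aligned with STAR to rat build mRatBN7.2, per the submitters' processing notes. The counting tool is not given in the sources used here, nor is its annotation. The authors deposited CPM values for 21425 genes, and no column belonged to no sample (0). All values (100%) were whole multiples of 1 read within 0.01 read, so reads were recovered. Reads outside the listed genes made up 2.93 to 3.98% (baseline) and 4.25 to 4.71% (induction), and a count of 0 allows 3 reads, or 0.0987 to 0.190 CPM, for counting error only.

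Genes with at least 1 CPM in at least 3 libraries of an experiment were fitted with limma 3.58.1 (R 4.3.3) on log2(CPM + 1) with an empirical Bayes trend, all 12 libraries of the experiment and, for induction, litter as a block. All p-values are two-sided, with Benjamini-Hochberg adjustment over every gene tested. The litters come from the sample labels: deviations from the group means correlated across genes with a median of 0.482 over 18 same-litter pairs, 16 of them above 0.1. The baseline numbers are technical replicates.

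The genes and lists were chosen with earlier results of these data known. Genes described in full were the called genes with the largest changes (up to 6 in each direction, at least 5 CPM, no overlap) and a fixed panel; others were added for their role or after their values were seen. Alternatives were edgeR 4.0.16 and DESeq2 1.42.0 on the recovered counts (7292 and 7590 genes called on day 3 against tissue, 523 and 937 at 48 h against 0 h), another pseudocount, no filter, TMM scaling, 2 groups alone, the block, and each library left out. Leaving out whole litters and summing Il13ra1 with its pseudogene were chosen after seeing the data. Of equal numbers of 2-fold and larger changes put into simulated data, 68 and 95 were recovered for day 3 against tissue. For 2 h against 0 h, 84 and 98 were recovered. Of 172 and 190 calls, 9 and 8 were false, and no litter differences were simulated. Promoters came from RefSeq (GRCr8), and their coordinates are on that build, not on that of the authors' alignment.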

Additional observations from a re-analysis of the deposited data

How the results depend on the processing

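The direction of every called change held under each alternative run. Of 102 called changes, 80 were called under all of them (all 80 among the 97 of the baseline) and 22 were lost under at least 1, while 23 uncalled changes were called under at least 1. The counts called against tissue ran from 29 to 34 on day 3, 26 to 31 on day 5 and 29 to 32 on day 7 with 1 library left out. From day 3 to day 7 they ran from 1 to 4, in the induction experiment from 1 to 5 (48 h against 0 h; 0 to 5 with whole litters left out included, the 0 without litter 2), 0 to 1 (12 h against 2 h) and 0 to 1 (48 h against 12 h), and they stayed at 0 for 2 h and 12 h against 0 h.

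The count of 4 at 48 h became 2 with no filter on low values and 1 with only the 2 groups compared. The count of 1 from 2 to 12 h became 2 with DESeq2 and 0 with only the 2 groups compared, and that of 0 from 12 to 48 h became 1 with DESeq2. The cause was not tested. Without the litter block, the count became 2 at 48 h against 0 h and 0 from 2 to 12 h, and changed for no other induction comparison. With a replicate block in the baseline, whose numbers pair no samples (median correlation -0.000715, 5 of 18 pairs above 0.1), the counts were 34, 29 and 30 against tissue and 4 from day 3 to day 7.

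Genes near 1 CPM rest on few reads in each library.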
